A study of Homo sapiens with 12 samples.

Results

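The 10 genes described here, CDH5, CLDN5, ESAM, EMCN, VWF, ROBO4, TEK, TIE1, EGFL7 and NOS3, are genes of endothelial cell junctions and endothelial identity. They were taken by symbol from a list drawn up for this purpose, and all 10 were found among the 56266 genes of the expression files. RNA was sequenced from H1 cells, an established human embryonic stem cell (hESC) line, and from blood-forming cells made from it by co-culture on OP9, a mouse bone marrow stromal line. Hemogenic endothelium (HE) was sorted on day 8 as CD34+ CD31+ CD43- cells and hematopoietic progenitor cells (HPCs) on day 9 as CD34+ CD43+ cells, each from wild-type (WT) H1 and from H1 carrying GATA2-/-. The GATA2-/- line was 1 H1 clone in which exon 3 of both GATA2 alleles had been disrupted by TALEN-aided targeting, so the line and the genotype cannot be told apart. Undifferentiated GATA2-/- hESCs were the fifth group, with 2 libraries in each of the 5 groups, and the 2 undifferentiated WT hESC samples were not analysed here. Sources did not say whether the 2 libraries of a group came from separate cultures, so p-values measure the spread between these libraries, which may be technical. All levels are TPM, transcript abundances corrected for transcript length and scaled to the same total in every library, so they can be compared between genes.

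Blood progenitors in the embryo arise from hemogenic endothelium, a flat endothelial cell that loosens its junctions and turns into a round, free blood cell. CDH5 (VE-cadherin) holds neighbouring endothelial cells together at adherens junctions, CLDN5 seals tight junctions, and ESAM is an immunoglobulin-like adhesion molecule at the same contacts. EMCN is a surface sialomucin, VWF is the clotting protein stored in endothelial granules, and ROBO4 is an endothelial receptor of the Robo family. TEK (TIE2) is the receptor for angiopoietins, TIE1 is its partner receptor, EGFL7 is a secreted vascular protein, and NOS3 makes nitric oxide.

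On the GRCh37 assembly, as annotated by GENCODE, CDH5 spans 66400593 to 66438687 on chromosome 16 and CLDN5 spans 19510547 to 19515068 on chromosome 22. ESAM (124622479 to 124632186) and ROBO4 (124753587 to 124768396) lie on the same strand of chromosome 11. EMCN covers 101316498 to 101801283 of chromosome 4 and VWF 6058043 to 6233936 of chromosome 12. TEK (27109139 to 27230172) and EGFL7 (139553308 to 139567130) are both on chromosome 9, TIE1 lies at 43766653 to 43788779 on chromosome 1, and NOS3 at 150688105 to 150711676 on chromosome 7. Exons of NOS3 share 786 bases (13.3% of its exonic bases) with ATG9B on the opposite strand, those of ROBO4 share 744 and 448 bases with a pair of long noncoding RNAs, and those of EMCN share 225 bases with another. The strand used in counting was not stated, so reads from these stretches could not be assigned to one gene. VWF has a partial pseudogene copy, VWFP1, which was listed at 0 to 1.49 TPM.

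RefSeq promoter sequences (GRCh38.p14) were matched by symbol for 6 of the 10 genes, EMCN, ROBO4, TEK, TIE1, EGFL7 and NOS3, with 9 start sites between them. Shown here are the 250 bases before the start for EMCN and ROBO4, of whose HE level little was left in HPCs, and for TIE1 and EGFL7, of whose level the most was left. Capitals mark AGGAAG, a core of ETS factor sites, and GATAA, a core of GATA factor sites, on either strand (CTTCCT and TTATC in reverse), and no marked stretch holds both. Each sequence runs 5′ to 3′ on the strand of its gene.
EMCN, chr4:100518023-100518272, minus strand: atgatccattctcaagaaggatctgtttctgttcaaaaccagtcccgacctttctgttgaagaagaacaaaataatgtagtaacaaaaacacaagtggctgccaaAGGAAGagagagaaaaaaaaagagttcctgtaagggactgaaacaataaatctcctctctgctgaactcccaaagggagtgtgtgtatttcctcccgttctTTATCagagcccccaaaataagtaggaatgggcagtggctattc
ROBO4, chr11:124897866-124898115, minus strand: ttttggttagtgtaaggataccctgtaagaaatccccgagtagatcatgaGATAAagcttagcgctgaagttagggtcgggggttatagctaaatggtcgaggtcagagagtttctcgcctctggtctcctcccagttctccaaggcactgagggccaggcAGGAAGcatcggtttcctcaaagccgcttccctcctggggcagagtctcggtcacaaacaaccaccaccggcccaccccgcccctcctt
TIE1, chr1:43300732-43300981, plus strand: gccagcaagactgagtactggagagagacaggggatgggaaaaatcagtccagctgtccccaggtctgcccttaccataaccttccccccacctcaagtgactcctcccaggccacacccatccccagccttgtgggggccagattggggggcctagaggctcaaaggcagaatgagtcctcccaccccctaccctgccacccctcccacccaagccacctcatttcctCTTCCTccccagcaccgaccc
EGFL7 upstream start, chr9:136658606-136658855, plus strand: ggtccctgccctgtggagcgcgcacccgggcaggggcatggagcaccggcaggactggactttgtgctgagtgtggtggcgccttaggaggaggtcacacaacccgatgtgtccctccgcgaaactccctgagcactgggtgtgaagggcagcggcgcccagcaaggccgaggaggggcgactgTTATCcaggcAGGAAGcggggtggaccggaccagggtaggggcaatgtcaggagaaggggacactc
EGFL7 downstream start, chr9:136662666-136662915, plus strand: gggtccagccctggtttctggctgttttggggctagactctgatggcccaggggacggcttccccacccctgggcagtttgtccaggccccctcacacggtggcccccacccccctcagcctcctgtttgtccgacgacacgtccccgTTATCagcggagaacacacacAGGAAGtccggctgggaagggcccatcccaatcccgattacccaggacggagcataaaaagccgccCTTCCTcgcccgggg
AGGAAG stood 145 bases before the EMCN start, 89 before that of ROBO4, 21 before that of TIE1 and 56 before the upstream start of EGFL7, while the downstream start had it at 81 and 15 bases. GATAA stood at 44, 200, 66 and 102 bases before the EMCN, ROBO4 and both EGFL7 starts, and these letters were not in the TIE1 window. Of the 9 windows, 7 held AGGAAG and 6 held GATAA, and the NOS3 windows overlap each other almost wholly. Among all 35116 promoter windows of this length, 28.7% held AGGAAG and 20.4% held GATAA. These matches are letters in a window and not measured binding sites.

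Over the 10 libraries, 16004 to 17335 genes reached 1 TPM. The deposited TPM values keep no read depth, so the counting error of low values is unknown. GATA2 itself was at 106.8 and 78.03 TPM in WT HE and at 110.93 and 94.06 TPM in HE labelled GATA2-/-, so the gene-level value did not separate the genotypes there. In HPCs, GATA2 was at 290.08 and 204.17 TPM in WT and at 112.47 and 83.82 TPM in the libraries labelled GATA2-/-. The targeting leaves an altered transcript possible, and the gene-level value therefore does not check the labels.

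All 10 genes were lower in every HPC library than in every HE library, whichever the genotype. The share of all genes with this pattern was not counted. The fall was largest for CLDN5, VWF, ROBO4 and EMCN in WT and smallest for EGFL7, TIE1 and TEK. The question of this comparison was how endothelial genes differ between hemogenic endothelium and progenitors. HE and HPCs differed in culture day and sort gate as well as in stage, and these cannot be told apart. A fall here means a lower level in HPCs than in HE. The plot of levels by library shows this difference for each gene.

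**Figure D1:**
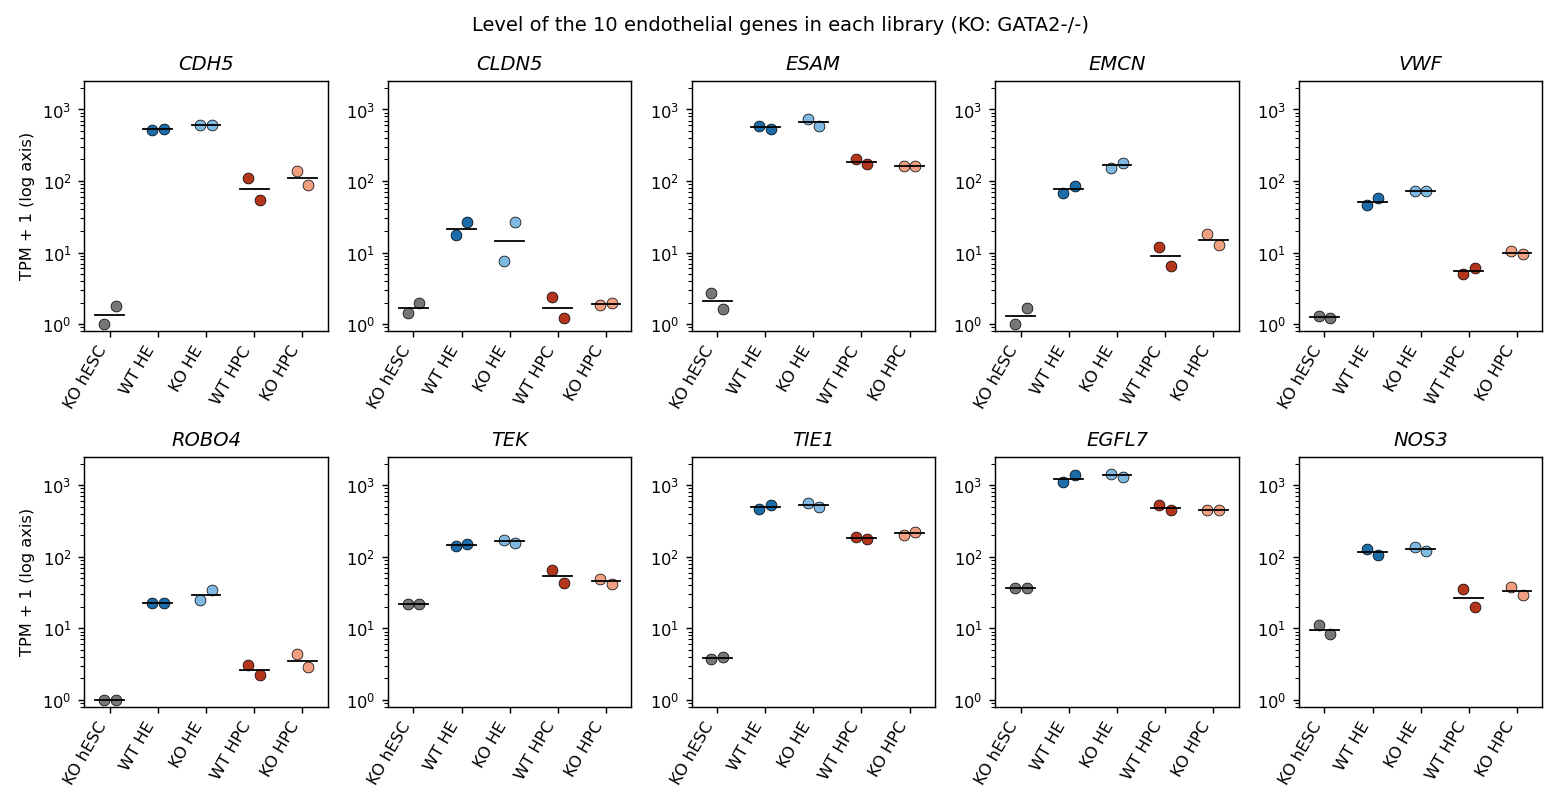
Level of each of the 10 genes in each library, as TPM + 1 on a log axis, by group (KO stands for GATA2-/-); points are libraries, replicate 1 on the left, and bars the mean of the log values. Every gene was lower in all 4 HPC libraries than in all 4 HE libraries, with EGFL7 highest and CLDN5 lowest at both stages. How many of all genes had this pattern was not counted.

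Among the junction genes, CDH5 stood at 514.16 and 538.22 TPM in WT HE, at 613.63 and 607.7 TPM in GATA2-/- HE, at 110.45 and 53.91 TPM in WT HPCs and at 137.19 and 85.87 TPM in GATA2-/- HPCs. HE and HPC values did not overlap, and replicate 1 was the higher HPC library in both genotypes. The log2 fold change of TPM + 1 from HE to HPCs was -2.75 ± 0.38 (SE) in WT and -2.48 ± 0.38 in GATA2-/- (adjusted p = 0.00262 and 0.00346).

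CLDN5 was far lower, at 16.35 and 25.46 TPM in WT HE, 6.72 and 25.98 TPM in GATA2-/- HE, 1.36 and 0.22 TPM in WT HPCs and 0.85 and 0.95 TPM in GATA2-/- HPCs. The GATA2-/- HE libraries differed widely, and replicate 1 was the lowest of the 4 HE libraries. CLDN5 fell by 3.66 ± 0.60 on the log2 scale in WT (adjusted p = 0.00606) and by 2.93 ± 0.60 in GATA2-/- (adjusted p = 0.0140). Without GATA2-/- HE replicate 2 the GATA2-/- change was -2.02 (adjusted p = 0.0872), and the call was also lost without GATA2-/- HPC replicate 1 or 2 (adjusted p = 0.0700 and 0.0709). In WT it was lost without HE replicate 2 (adjusted p = 0.0627) and without HPC replicate 2 (adjusted p = 0.0563).

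ESAM was at 589.76 and 530.28 TPM in WT HE and 745.07 and 584.53 TPM in GATA2-/- HE. In HPCs it was at 199.88 and 169.54 TPM in WT and 159.5 and 163.72 TPM in GATA2-/-. Thus the adhesion molecule kept a level in HPCs above that of CDH5 in all 4 libraries, although the HE ranges of both genes overlapped. Its log2 fold change was -1.60 ± 0.24 in WT and -2.02 ± 0.24 in GATA2-/- (adjusted p = 0.00397 and 0.00105).

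EMCN, the sialomucin, was at 67.44 and 85.33 TPM in WT HE, 153.26 and 179.19 TPM in GATA2-/- HE, 11.12 and 5.52 TPM in WT HPCs and 16.95 and 11.76 TPM in GATA2-/- HPCs. Both GATA2-/- libraries lay above both WT libraries at each stage. EMCN fell by 3.11 ± 0.37 on the log2 scale in WT and by 3.46 ± 0.37 in GATA2-/- (adjusted p = 0.00125 and 0.000663).

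VWF showed the same order of groups, with 45.35 and 56.37 TPM in WT HE, 71.78 and 71.94 TPM in GATA2-/- HE, 4.06 and 5.02 TPM in WT HPCs and 9.46 and 8.48 TPM in GATA2-/- HPCs. Replicates were close, and neither genotypes nor stages overlapped. Its change of -3.22 ± 0.24 in WT had the lowest adjusted p of the 10 genes (0.000297), and it was -2.87 ± 0.24 in GATA2-/- (adjusted p = 0.000304).

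ROBO4 was at 21.78 and 21.53 TPM in WT HE and 23.54 and 32.83 TPM in GATA2-/- HE. Little of this guidance-type receptor was left in HPCs, at 2.1 and 1.2 TPM in WT and 3.32 and 1.88 TPM in GATA2-/-. It fell by 3.12 ± 0.35 on the log2 scale in WT and by 3.03 ± 0.35 in GATA2-/- (adjusted p = 0.00103 and 0.000958).

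The Tie receptors fell less. TEK was at 142.04 and 150.82 TPM in WT HE, 171.92 and 156.62 TPM in GATA2-/- HE, 64.59 and 42.24 TPM in WT HPCs and 48.16 and 41.08 TPM in GATA2-/- HPCs. Its log2 fold change was -1.47 ± 0.21 in WT and -1.86 ± 0.21 in GATA2-/- (adjusted p = 0.00295 and 0.000792).

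TIE1 was about as abundant as CDH5 in HE, at 464.18 and 521.04 TPM in WT and 570.65 and 487.06 TPM in GATA2-/-. In HPCs it stayed at 189.29 and 178.09 TPM in WT and 202.84 and 223.56 TPM in GATA2-/-, above CDH5 in each of the 4 libraries. The log2 fold change was -1.42 ± 0.14 in WT and -1.30 ± 0.14 in GATA2-/- (adjusted p = 0.000754 and 0.000781).

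EGFL7, the secreted protein, was the most abundant of the 10 genes at both stages. It was at 1093.94 and 1376.59 TPM in WT HE, 1438.81 and 1314.71 TPM in GATA2-/- HE, 529.67 and 443.96 TPM in WT HPCs and 449.37 and 448.35 TPM in GATA2-/- HPCs. EGFL7 fell by 1.34 ± 0.15 on the log2 scale in WT and by 1.61 ± 0.15 in GATA2-/- (adjusted p = 0.00108 and 0.000446).

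NOS3, the nitric oxide synthase, was at 128.13 and 104.88 TPM in WT HE, 135.09 and 119.05 TPM in GATA2-/- HE, 34.11 and 18.82 TPM in WT HPCs and 37.25 and 28.56 TPM in GATA2-/- HPCs. Its log2 fold change was -2.15 ± 0.29 in WT and -1.93 ± 0.29 in GATA2-/- (adjusted p = 0.00247 and 0.00336). The opposite-strand gene ATG9B was at 1.57 to 14.17 TPM over the HE and HPC libraries, below NOS3 in each.

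All 10 genes passed the threshold of adjusted p under 0.05 as lower in HPCs, in WT and in GATA2-/- alike. Among all 21543 genes tested, 6.59% fell and 3.32% rose in WT, and 7.24% fell and 5.5% rose in GATA2-/-. The median log2 fold change of the 10 genes was -2.45 in WT and -2.25 in GATA2-/-, beside -0.01 and 0.03 over all genes tested. The fits used all 10 libraries for 1 estimate of the spread. With only the 4 libraries of a comparison, none of the 21543 genes was called by limma in either genotype (4423 and 5040 genes at an unadjusted p under 0.05), and the adjusted p of the 10 genes was 0.0767 to 0.113 in WT and 0.0576 to 0.160 in GATA2-/-. In bulk RNA, fewer cells of a type and less RNA per cell cannot be told apart.

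**Figure D2:**
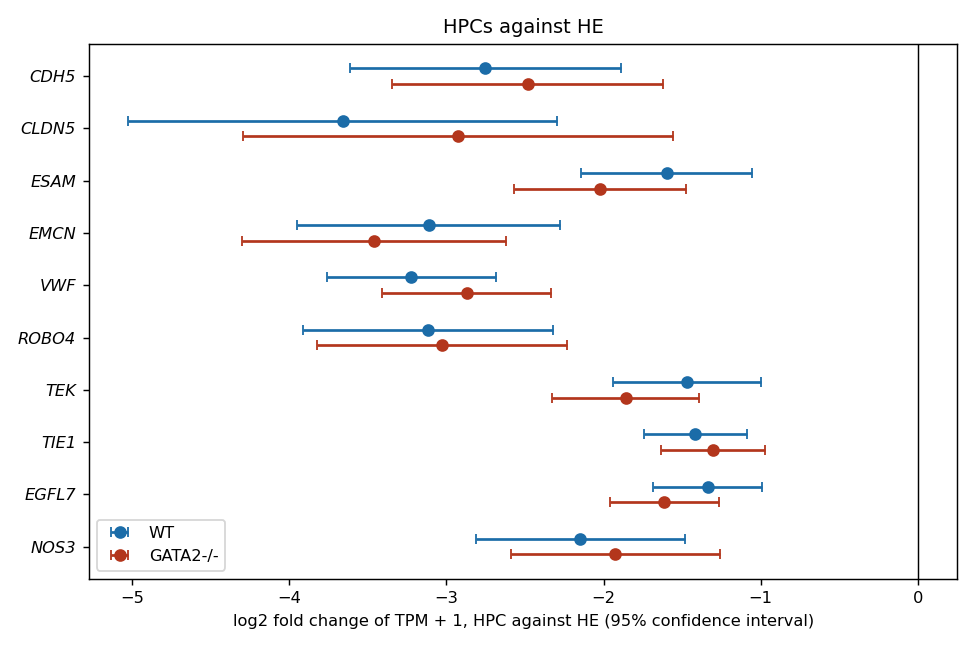
Log2 fold change of TPM + 1 from HE to HPCs for each gene, in WT (blue) and GATA2-/- (red), with 95% confidence intervals from limma. All 20 intervals lay below 0. Point estimates ran from -1.34 (EGFL7) to -3.66 (CLDN5) in WT and from -1.30 (TIE1) to -3.46 (EMCN) in GATA2-/-.

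The share of the HE level that was left in HPCs, taken as the ratio of mean TPM, set the genes apart. In WT it was 3.78% for CLDN5, 7.62% for ROBO4, 8.93% for VWF, 10.9% for EMCN and 15.6% for CDH5. NOS3 kept 22.7%, ESAM 33.0%, TEK 36.5%, TIE1 37.3% and EGFL7 39.4%. The GATA2-/- shares were 5.50% for CLDN5, 8.64% for EMCN, 9.22% for ROBO4, 12.5% for VWF, 18.3% for CDH5, 24.3% for ESAM, 25.9% for NOS3, 27.2% for TEK, 32.6% for EGFL7 and 40.3% for TIE1. The CLDN5 share rests on levels of 0.22 to 1.36 TPM in HPCs and ranged over library pairs from 0.864% to 8.32% in WT and from 3.27% to 14.1% in GATA2-/-. It was 1.05% without WT HPC replicate 1, 6.51% without WT HPC replicate 2, 3.46% without GATA2-/- HE replicate 1 and 13.4% without GATA2-/- HE replicate 2, the last above the shares of EMCN, ROBO4 and VWF. Without WT HPC replicate 1, the WT share was 10.2% for CDH5 and 7.23% for EMCN. CLDN5, EMCN, VWF, ROBO4 and CDH5 were the 5 lowest in both genotypes, and TEK, TIE1 and EGFL7 the 3 highest. Neighbours in the WT order had overlapping ranges over library pairs, for example 34.2% to 40.8% for TIE1 and 32.3% to 48.4% for EGFL7. In the GATA2-/- order VWF and CDH5, TEK and EGFL7, and EGFL7 and TIE1 were apart, and the other neighbours overlapped. In each genotype 6 genes kept under 25%, a line set after the values were seen.

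The order of the genes by level changed little between the stages. In HE the medians over the 4 libraries ran from EGFL7 (1346 TPM) through ESAM (587 TPM), CDH5 (573 TPM), TIE1 (504 TPM), TEK (154 TPM), NOS3 (124 TPM), EMCN (119 TPM), VWF (64.1 TPM) and ROBO4 (22.7 TPM) to CLDN5 (20.9 TPM). Ranges overlapped between ESAM and CDH5, CDH5 and TIE1, NOS3 and EMCN, EMCN and VWF, and ROBO4 and CLDN5, and the other neighbours were apart. In HPCs EGFL7 (449 TPM) was followed by TIE1 (196 TPM), ESAM (167 TPM) and CDH5 (98.2 TPM), then by TEK (45.2 TPM), NOS3 (31.3 TPM), EMCN (11.4 TPM), VWF (6.75 TPM), ROBO4 (1.99 TPM) and CLDN5 (0.90 TPM). There the ranges of TIE1 and ESAM overlapped, as did those of CDH5 and TEK, EMCN and VWF, and ROBO4 and CLDN5. CDH5 thus moved from the third to the fourth place and TIE1 from the fourth to the second.

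Within a library, the other 9 genes were also set against CDH5, which does not depend on the scaling of that library. For each TPM of CDH5 there were 0.802 to 0.968 TPM of TIE1 in the 4 HE libraries and 1.48 to 3.30 TPM in the 4 HPC libraries. EGFL7 went from 2.13 to 2.56 in HE to 3.28 to 8.24 in HPCs, TEK from 0.258 to 0.280 to 0.351 to 0.784, and NOS3 from 0.195 to 0.249 to 0.271 to 0.349. ROBO4 went the other way, from 0.0384 to 0.0540 in HE to 0.0190 to 0.0242 in HPCs. These 5 ratios did not overlap between HE and HPC libraries, and each reached the smallest exact two-sided permutation p that 4 against 4 libraries allow (0.0286). Benjamini-Hochberg adjustment over the 9 ratios gave 0.0514 for each, so none passed the threshold. WT and GATA2-/- libraries were pooled by stage, and all 9 ratios share CDH5 as denominator, so they are not separate results. The mean log2 differences were 1.27 for TIE1, 1.15 for EGFL7, 0.95 for TEK, 0.55 for NOS3 and -0.99 for ROBO4, and each had the same sign in WT and in GATA2-/-. ESAM (0.81), EMCN (-0.78), VWF (-0.61) and CLDN5 (-1.92) had overlapping ranges (exact permutation p = 0.0571 to 0.0857, adjusted p = 0.0735 to 0.0857).

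No gene of the 10 passed the threshold between the genotypes, in HE or in HPCs. EMCN was the furthest apart in HE, with a log2 fold change of 1.12 ± 0.37 for GATA2-/- against WT (95% interval 0.28 to 1.96, adjusted p = 0.821). VWF was the furthest apart in HPCs at 0.85 ± 0.24 (95% interval 0.31 to 1.39, adjusted p = 0.317). All genes counted, 4 passed in HE (0.0186% of those tested, 1045 genes at an unadjusted p under 0.05) and 13 in HPCs (0.0603%, 1925 genes at an unadjusted p under 0.05). With 1 library left out these counts were 0 to 1 in HE and 0 to 14 in HPCs.

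Direction was less even. Both GATA2-/- HE libraries lay above both WT HE libraries for CDH5, EMCN, VWF, ROBO4 and TEK, 5 of the 10 genes, beside 13.8% of all genes tested. In HPCs this held for 3 of the 10, EMCN, VWF and TIE1, beside 19.7% of all genes, and ESAM lay lower in both GATA2-/- libraries. All 10 genes were read in the same libraries, so they are not separate tests of a genotype difference. Averaged over HE and HPCs, the log2 fold change was 0.94 ± 0.26 for EMCN (95% interval 0.35 to 1.53, adjusted p = 0.401) and 0.68 ± 0.17 for VWF (95% interval 0.29 to 1.06, adjusted p = 0.335). Of all genes, 0.0232% passed in this average (5 genes, and 0 to 10 with 1 library left out), and none of the 10 did.

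For the junction genes the intervals of the genotype difference in HE were -0.65 to 1.08 for CDH5, -1.94 to 0.80 for CLDN5 and -0.31 to 0.78 for ESAM, all on the log2 scale. Those of TEK (-0.31 to 0.63), TIE1 (-0.23 to 0.43) and EGFL7 (-0.18 to 0.51) were narrower. A change of 1 on the log2 scale lay outside these, as it did for ESAM and for NOS3 (-0.54 to 0.79). In HPCs TEK, TIE1 and EGFL7 gave intervals of -0.70 to 0.24, -0.12 to 0.54 and -0.46 to 0.23.

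**Figure D3:**
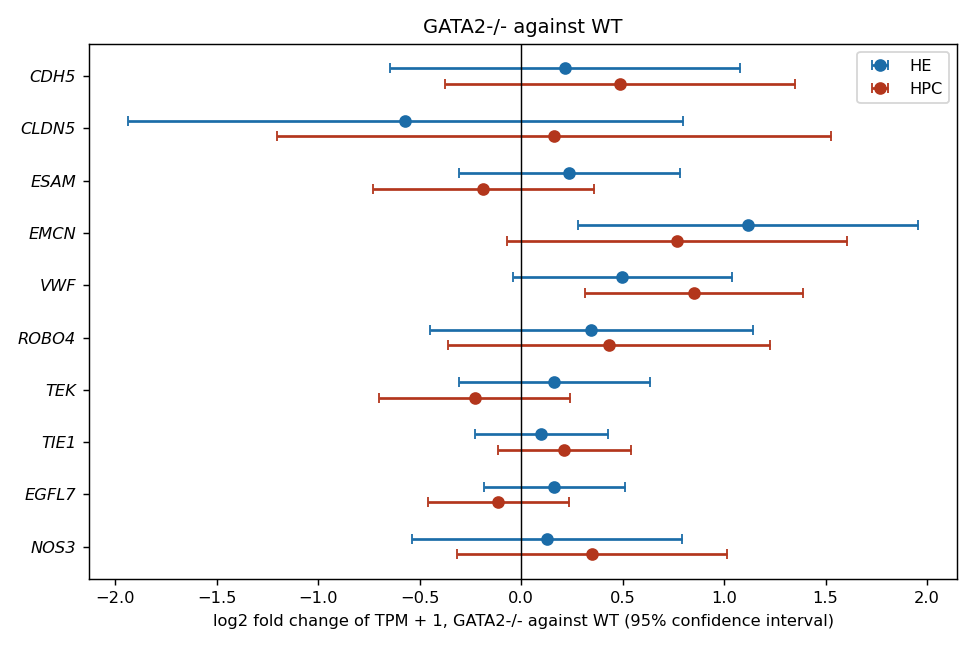
Log2 fold change of TPM + 1 for GATA2-/- against WT in HE (blue) and HPCs (red), with 95% confidence intervals from limma. The interval was above 0 for EMCN in HE (1.12) and VWF in HPCs (0.85), and neither passed after adjustment over all genes.

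The size of the fall itself was compared between the genotypes by an interaction term. Its estimates ran from -0.43 ± 0.34 for ESAM, the side of a larger fall in GATA2-/-, to 0.73 ± 0.85 for CLDN5, the side of a smaller one, and the adjusted p was 0.911 to 1.0. No gene in the genome passed (0% of those tested, with 1281 genes at an unadjusted p under 0.05 by limma, and 0 to 5 calls with 1 library left out). For TIE1 the interval was -0.35 to 0.58 and for EGFL7 -0.76 to 0.21, while that of CLDN5 reached from -1.20 to 2.66.

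Outside the 10 genes, the platelet gene PF4 was at 32.12 to 37.33 TPM in WT HE and 3.66 to 4.7 TPM in GATA2-/- HE, a log2 fold change of -2.79 ± 0.27 (adjusted p = 0.0249). With any of the 10 libraries left out it did not pass (adjusted p = 0.0537 to 0.197). CD34, one of the sorting markers, was at 605.4 and 640.54 TPM in WT HE and 925.0 and 1059.6 TPM in GATA2-/- HE (log2 fold change 0.67 ± 0.22, adjusted p = 0.841). The summed level of the 14 erythroid genes was 119.69 to 194.29 TPM in WT HE and 34.41 to 49.39 TPM in GATA2-/- HE, and that of the 14 megakaryocyte and platelet genes 266.66 to 297.39 and 146.01 to 185.63 TPM. These sums were not tested, and apart from PF4 no gene of either list passed in HE. Transcripts of the mitochondrial genome made up 8.66% to 9.61% of TPM in WT HPCs and 14.8% to 15.1% in GATA2-/- HPCs. When TPM was rescaled without hemoglobin and mitochondrial genome genes, the EMCN and VWF estimates for GATA2-/- against WT stayed above 0. The part of the values of this paragraph in the EMCN and VWF differences was otherwise not tested.

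Undifferentiated GATA2-/- hESCs held little of most of these genes. ROBO4 was listed at 0 in both libraries, CDH5 at 0 and 0.81 TPM, EMCN at 0 and 0.7 TPM, VWF at 0.29 and 0.22 TPM, CLDN5 at 0.41 and 0.99 TPM, and ESAM at 1.7 and 0.62 TPM. TIE1 (2.72 and 2.92 TPM) and NOS3 (10.11 and 7.22 TPM) were above these. EGFL7 at 35.89 and 36.11 TPM and TEK at 20.68 and 20.55 TPM were the highest of the 10 in hESCs. In GATA2-/- HPCs TIE1 kept the largest share of the HE level (40.3%), followed by EGFL7 (32.6%) and TEK (27.2%). A link between the hESC level and that share was not tested.

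From hESCs to HE in the GATA2-/- line all 10 genes rose, beside 13.9% of all genes tested. Without hESC replicate 1 the CLDN5 call was lost (adjusted p = 0.0612). TIE1 rose by 7.11 ± 0.14 on the log2 scale (adjusted p = 5.8e-08) and TEK by 2.93 ± 0.21 (adjusted p = 2.11e-05). In HPCs 9 of the 10 were still above hESCs, beside 14.2% of all genes, with TEK at 1.07 ± 0.21 (adjusted p = 0.00458). CLDN5 was the exception, at 0.85 and 0.95 TPM in HPCs, with a log2 fold change of 0.18 ± 0.60 against hESCs (adjusted p = 0.865). No comparison of this kind was made in WT.

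Partners of the junction proteins fell in part. Of 21 listed junction partners, 9 fell in WT, 8 fell in GATA2-/- and 1 rose in GATA2-/-, with medians of -0.79 and -0.75. Over all genes tested, 6.59% fell in WT, and 7.24% fell and 5.5% rose in GATA2-/-. JAM3, a junction adhesion molecule, went from 335.36 to 346.66 TPM in WT HE to 31.34 to 57.64 TPM in WT HPCs (log2 fold change -2.97 ± 0.26, adjusted p = 0.000499). GJA1, a gap junction channel, fell by 2.87 ± 0.29 on the log2 scale and TJP1 (ZO-1), which ties tight junctions to actin, by 2.41 ± 0.24 in WT (adjusted p = 0.000717 and 0.000705). CGNL1, a junction scaffold, fell in WT (-2.48 ± 0.44, adjusted p = 0.00878) and had -1.24 ± 0.44 in GATA2-/- (adjusted p = 0.108). The other 15 of the 19 junction partners that passed in at least 1 comparison are not given singly.

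Angiopoietin and Tie partners mostly did not pass, with 1 risen and 1 fallen of 10 tested in WT and 1 risen and 2 fallen in GATA2-/-. Over all genes, 3.32% rose and 6.59% fell in WT, and 5.5% rose and 7.24% fell in GATA2-/-. Counts this small are not read as a result about the list. ANGPT1, the ligand that activates TEK, rose from 11.54 to 14.9 TPM in WT HE to 33.92 to 44.5 TPM in WT HPCs (1.50 ± 0.33, adjusted p = 0.0224) and by 2.22 ± 0.33 in GATA2-/- (adjusted p = 0.00302). Its receptor TEK fell over the same step. PTPRB, the endothelial phosphatase that acts on TEK, fell by 2.09 ± 0.34 in WT and by 1.70 ± 0.34 in GATA2-/- on the log2 scale (adjusted p = 0.00591 and 0.0128). GRB14 and PIK3R1 passed only against hESCs.

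For NOS3, 1 of 12 nitric oxide partners fell in WT, and 2 fell and 1 rose in GATA2-/-. Beside 6.59% fallen of all genes in WT, and 7.24% fallen and 5.5% risen in GATA2-/-, these counts are not a result about the list. CAV1, the caveolar coat protein that binds the enzyme, dropped from 32.28 to 50.96 TPM in WT HE to 0.46 to 1.46 TPM in WT HPCs (-4.46 ± 0.69, adjusted p = 0.00470). GCH1, which starts synthesis of the enzyme's cofactor, fell by 2.32 ± 0.32 on the log2 scale in GATA2-/- (adjusted p = 0.00216) and had -1.03 ± 0.32 in WT (adjusted p = 0.0833). GUCY1B1, a subunit of the nitric oxide receptor, rose in GATA2-/- by 1.84 ± 0.51 (adjusted p = 0.0493), and NOSTRIN passed in neither genotype between HE and HPCs.

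Among 8 partners of VWF storage and clotting, 2 fell and 1 rose in WT, and 2 fell and 2 rose in GATA2-/-. Over all genes, 6.59% fell and 3.32% rose in WT, and 7.24% fell and 5.5% rose in GATA2-/-. In so short a list these counts are not read as a result about it. SELP (P-selectin), stored in the same granules in endothelium and also in platelets, rose from 8.06 to 8.54 TPM in WT HE to 33.49 to 36.09 TPM in WT HPCs (1.94 ± 0.31, adjusted p = 0.00513), the reverse of VWF. EDN1 (endothelin) was at 20.99 to 25.24 TPM in WT HE and listed at 0 in both WT HPC libraries. F8, the clotting factor that VWF carries, rose in GATA2-/- by 1.79 ± 0.38 (adjusted p = 0.0161) and had 1.33 ± 0.38 in WT (adjusted p = 0.0619).

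The Robo and EGFL7 partners moved more, with 7 of 12 fallen and 1 risen in each genotype and medians of -1.35 and -1.45. Over all genes tested, 6.59% fell and 3.32% rose in WT, and 7.24% fell and 5.5% rose in GATA2-/-. UNC5B, a receptor that binds ROBO4, fell by 3.04 ± 0.36 on the log2 scale in WT, ROBO1 by 2.29 ± 0.37 and the ligand SLIT2 by 2.37 ± 0.37 (adjusted p = 0.00130, 0.00536 and 0.00487). ITGB3, an integrin chain of platelets and endothelium, rose from 10.15 to 17.6 TPM in WT HE to 161.39 to 170.73 TPM in WT HPCs (3.54 ± 0.39, adjusted p = 0.000981).

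Other endothelial surface and signalling genes fell with the 10 genes. In each genotype 27 of 30 tested fell and none rose, with medians of -2.89 and -2.72. Over all genes tested, 6.59% fell in WT and 7.24% in GATA2-/-. RAMP2, a coreceptor for adrenomedullin, fell by 5.76 ± 0.33 on the log2 scale in WT, the adhesion receptor ADGRL4 by 5.11 ± 0.39, the apelin receptor APLNR by 4.47 ± 0.28 and CD93 by 4.21 ± 0.45 (adjusted p = 0.000129, 0.000331, 0.000149 and 0.000821). Each of these 4 fell further than CLDN5 in WT by point estimate, and the differences from CLDN5 were not tested.

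Transcription factors of endothelium were split. In each genotype 11 of 18 fell and none rose, with medians of -1.74 and -1.56. The shares fallen of all genes tested were 6.59% in WT and 7.24% in GATA2-/-. SOX17 went from 23.63 to 27.11 TPM in WT HE to 0.16 to 0.51 TPM in WT HPCs (-4.31 ± 0.42, adjusted p = 0.000637), SOX7 fell by 4.03 ± 0.55 on the log2 scale and ERG, an ETS factor, by 2.72 ± 0.32 (adjusted p = 0.00247 and 0.00122). FOXC2 was at 6.8 to 6.94 TPM in WT HE and listed at 0 in both WT HPC libraries.

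Blood markers rose as the 10 endothelial genes fell. Of 15 pan-hematopoietic genes 9 rose and 1 fell in WT, and 7 rose and 1 fell in GATA2-/-. Over all genes tested, 3.32% rose and 6.59% fell in WT, and 5.5% rose and 7.24% fell in GATA2-/-. SPN, which encodes the sorting marker CD43, went from 4.86 to 8.81 TPM in WT HE to 104.22 to 107.93 TPM in WT HPCs, the marker on which the gates were set. WAS rose by 3.19 ± 0.44 and LCP1 by 3.03 ± 0.63 in WT, while KIT, the stem cell factor receptor, fell by 2.38 ± 0.27 on the log2 scale (adjusted p = 0.00250, 0.0171 and 0.00103).

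Megakaryocyte and platelet genes rose for 9 of 13 tested in WT and 8 in GATA2-/-, and erythroid genes for 10 of 14 in each. The shares risen of all genes tested were 3.32% in WT and 5.5% in GATA2-/-. ITGA2B rose by 4.21 ± 0.34 in WT, PF4 by 2.80 ± 0.27 and GP1BA by 2.65 ± 0.30 (adjusted p = 0.000376, 0.000583 and 0.00103). PPBP was listed at 0 in all HE libraries and at 6.72 to 8.63 TPM in WT HPCs. Globin genes HBE1 (7.43 ± 0.54), HBG2 (7.10 ± 0.50) and HBG1 (7.25 ± 0.68) rose in WT (adjusted p = 0.000294, 0.000268 and 0.000583), with reads shared among the near-identical globins uncertain, and HBA2 was listed at 0 in both WT HE libraries.

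Both populations were sorted on CD34 with the CD43 gates given above, and HE also on CD31. Of 12 mesenchymal genes 5 fell and 1 rose in WT, and 5 fell in GATA2-/-. Over all genes tested, 6.59% fell and 3.32% rose in WT, and 7.24% fell in GATA2-/-. The summed level of the 12 mesenchymal genes was 965.7 to 1161.31 TPM in WT HE and 123.99 to 274.13 TPM in WT HPCs. COL3A1 fell by 5.18 ± 0.51 on the log2 scale, THY1 by 3.82 ± 0.43 and COL1A2 by 2.44 ± 0.43 (adjusted p = 0.000658, 0.00108 and 0.00852), and LUM was listed at 0 in both WT HPC libraries. None of the 6 smooth muscle and 8 pluripotency genes passed between HE and HPCs (adjusted p by limma), the former with medians of -0.56 in WT and -0.43 in GATA2-/- and the latter with -0.09 and -0.23. TAGLN, a smooth muscle gene, had -1.51 ± 0.55 in WT (adjusted p = 0.134), and the pluripotency gene POU5F1 had -0.72 ± 0.36 (adjusted p = 0.293). The part of any of these in the fall of the 10 genes was not tested.

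The HPC libraries of a genotype differed for some of the 10 genes. In WT, 9 of the 10 genes were higher in replicate 1 than in replicate 2, VWF being the exception, beside 60% of all genes tested, and in GATA2-/- 7 were, beside 54.3%. CDH5, EMCN, ROBO4, TEK, EGFL7 and NOS3 were higher in replicate 1 in both genotypes, 6 of 10 beside 36.3% of all genes tested. Hemoglobin transcripts went the other way, at 4606.57 TPM in replicate 1 and 13963.42 TPM in replicate 2 of WT HPCs, and at 7086.67 and 15792.72 TPM in GATA2-/- HPCs. With each library left out in turn, the WT log2 fold change from HE ranged from -3.26 to -2.24 for CDH5 and from -1.50 to -1.33 for TIE1. The part of the hemoglobin transcripts in the replicate differences was not tested. All 10 genes were read in the same libraries, so these counts are not separate observations. The GATA2-/- count was not far from its all-gene share and included EGFL7, whose GATA2-/- HPC libraries were nearly equal. It is not read as a result about the 10 genes.

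Over all 10 libraries, the genes whose log2(TPM + 1) was most like the mean standardized profile of the 10 were found among the other genes tested. They were MMRN2 (r = 0.997), ECSCR (r = 0.996), ACVRL1 (r = 0.996), BGN (r = 0.996), ITPKB (r = 0.996), PMP22 (r = 0.996), AFAP1L1 (r = 0.996), FKBP9 (r = 0.996), CD99 (r = 0.996) and ELK3 (r = 0.995). These Pearson correlations describe 10 libraries of 5 groups that share their scaling and mostly follow the stages. MMRN2, which encodes an endothelial matrix protein, stood at 227.56 to 354.31 TPM in HE, 23.6 to 46.68 TPM in HPCs and 2.07 to 2.44 TPM in hESCs. ACVRL1, an endothelial receptor of the BMP family, stood at 90.92 to 141.24 TPM in HE and 10.17 to 13.55 TPM in HPCs. Of the 10 genes themselves, EMCN (r = 0.985), VWF (r = 0.983) and NOS3 (r = 0.981) followed the mean of the other 9 most closely and CLDN5 the least (r = 0.791). Within the 4 HE libraries alone, r was 0.81 for EMCN and 0.83 for VWF, but -0.27 for NOS3 and -0.41 for CLDN5.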

How the data were processed

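RNA was from H1 human embryonic stem cells, HE and HPCs. The authors prepared libraries with the TruSeq RNA kit from 1 µg of total RNA, sequenced single-end reads on a MiSeq, trimmed adapters with Trimmomatic and mapped to hg19 with Bowtie. The submitters' processing notes also list RSEM and the mouse build mm10, with no role given. The deposited values are TPM per gene, scaled to the same total within each library, so read depth is not kept. Groups were taken from the sample titles.

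Genes at 1 TPM or more in at least 2 libraries were kept (21543 of 56266). Comparisons were contrasts of limma 3.58.1 (R 4.3.3) on log2(TPM + 1) over all 10 libraries, with a trended prior variance, and p-values were adjusted by the Benjamini-Hochberg method over all genes tested (threshold 0.05). The fold changes of low genes are understated by the added 1. Ratios to CDH5 were compared by exact two-sided permutation (scipy 1.17.1). The script was tested on simulated data.

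The genes, the partner lists and the tests were chosen with earlier results of these data known. From each list the genes named passed in at least 1 comparison, up to 4 by size of change from HE to HPCs in WT. One gene that this rule selects is not reported here. Alternatives were another pseudocount, no filter, fewer libraries, other scalings, an untrended prior, a replicate block and each library left out.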

Additional observations from a re-analysis of the deposited data

How the results depend on the processing

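The fall of all 10 genes from HE to HPCs kept its direction in both genotypes under every alternative run. The number past the threshold stayed at 9 or 10 of 10, apart from the fit on only the 4 libraries of the comparison, where it was 0 in WT and 0 in GATA2-/-. That fit estimates the spread from fewer libraries. CLDN5 also missed the threshold with no filter on low genes (adjusted p = 0.0617 in WT and 0.0981 in GATA2-/-), and CDH5 with a pseudocount of 0.1 (adjusted p = 0.0894 and 0.105); the cause was not tested. With 1 library left out in turn, the count ranged from 9 to 10 in both genotypes, from 9 to 10 for HE against hESCs and was 9 for HPCs against hESCs. No gene of the 10 passed between genotypes under any alternative. The genotype estimate in a stage moves only when a library of that stage is left out, so most of 100 refits could not turn it. For some of the genes 1 library turned the genotype estimate, in 4 of these 100 refits in HE and 5 of 100 in HPCs. For those genes, over the libraries left out in turn, the GATA2-/- against WT estimate in HE ranged from -1.47 to 0.33 for CLDN5, -0.014 to 0.21 for TIE1, -0.0013 to 0.33 for EGFL7 and -0.015 to 0.27 for NOS3. In HPCs it ranged from -0.025 to 1.00 for CDH5, -0.31 to 0.64 for CLDN5, -0.53 to 0.073 for TEK, -0.24 to 0.016 for EGFL7 and -0.062 to 0.76 for NOS3. The interaction ranged from -0.24 to 0.78 for CDH5, -0.17 to 1.64 for CLDN5, -0.80 to 0.10 for EMCN, -0.21 to 0.38 for ROBO4, -0.0013 to 0.23 for TIE1 and -0.19 to 0.63 for NOS3. The average over HE and HPCs ranged from -0.66 to 0.25 for CLDN5, -0.062 to 0.11 for ESAM, -0.18 to 0.12 for TEK and -0.056 to 0.11 for EGFL7. HPCs against hESCs ranged from -0.067 to 0.43 for CLDN5. Quantile normalization gave -0.080 for the ROBO4 interaction, and rescaling without hemoglobin and mitochondrial genome genes gave 0.016 for the averaged TEK estimate; the cause was not tested. EMCN and VWF stayed above 0 between genotypes in HE, in HPCs and on average under every alternative run.

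Over all genes tested, dropping the filter moved the calls between genotypes from 4 to 87 in HE, from 13 to 29 in HPCs and from 0 to 30 for the interaction, and the calls from HE to HPCs from 2134 to 1035 in WT and from 2745 to 1511 in GATA2-/-. Leaving out 1 library gave 849 to 2073 calls in WT and 1257 to 2685 in GATA2-/-. The shares kept under 25% numbered 5 to 6 genes in WT and 5 to 7 in GATA2-/- with 1 library left out. Of the single shares recomputed in that way, 64 moved by less than a standard deviation and 16 by more. That deviation was taken from the 2 shares of same-numbered HE and HPC libraries. The 72 recomputed log2 differences of ratios to CDH5 kept their sign. Replicate numbers were not shown to pair the libraries: deviations of same-numbered libraries correlated at -0.01 to 0.12. With the replicate block, 10 and 10 genes fell from HE to HPCs, 10 and 9 exceeded hESCs and 0 differed between genotypes, in HE, in HPCs, on average or in the interaction; over all genes the calls were 2296 in WT and 3002 in GATA2-/-, and 2 and 3 between genotypes.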
